A study of Mus musculus with 2 samples.

Results

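The tumour necrosis factor (TNF) superfamily was followed in plasmacytoid dendritic cells (pDCs), sentinels of viral infection that release large amounts of type I interferon, with and without the transcription factor Runx2. Members were the genes whose platform symbol begins with Tnfsf or Tnfrsf, together with Tnf, Lta, Ltb, Ltbr, Fas, Fasl, Cd70 and Cd40lg, and without Tnfsf11 and Tnfrsf11b, which were not analysed here. Only probe sets with 1 gene symbol were used. This gave 35 genes of 19938 named on the array, 14 ligands and 21 receptors, each with a single probe set. The superfamily receptors Cd27, Cd40, Ngfr, Edar, Eda2r and Relt and the ligand Eda carry other symbols. They are described as partners and relatives and are not counted among the 35.

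The study used 2 Affymetrix arrays (Mouse Gene 1.0 ST), 1 for each genotype. Both samples were pDCs from the bone marrow of chimeras, mice given fetal liver cells that rebuild their blood system, taken 2 months after reconstitution; the donor cells were Runx2-/- in one group and wild type in the other. Cells lacking CD11b and carrying BST2 and B220 were sorted, and 250 ng of total RNA was labelled for each array. The labels give neither the number or age of the mice nor what host cells remained, so the arrays may represent 1 mouse or a pool. Since each genotype has 1 array, differences are given without error or test, and how far they would repeat is unknown.

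Ligands of this superfamily are mostly made as membrane-anchored trimers, and many are also cut from the surface as soluble cytokines. Their receptors carry either a death domain, which can start apoptosis through FADD and caspase-8, or sequences that bind TRAF adaptors and switch on NF-kappaB. In immune cells the family regulates survival, costimulation and killing, and pDCs activated through Toll-like receptors are known to display the death ligand TRAIL.

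The promoters shown first belong to the members that differed most between the arrays: those at least 0.5 apart on the log2 scale and bright enough to reach the median of named genes on either array. That median, called the brightness filter below, was a log2 intensity of 7.61 for wild type and of 7.54 for the Runx2-deficient sample. Cd27 is added because it had the widest difference among the superfamily genes outside the member rule. Each window runs from 250 bases before to 50 bases after the annotated start, 5′ to 3′ on the gene's own strand, in RefSeq on build GRCm38.p6. The windows are chr3:27316827-27317126 (plus strand) for the ligand Tnfsf10, chr15:82224331-82224630 (minus strand) for Tnfrsf13c, chr4:156026072-156026371 (plus strand) for Tnfrsf18, chr17:43016305-43016604 (plus strand) for Tnfrsf21 and chr6:125236978-125237277 (minus strand) for Cd27. Capitals mark any match to 2 motifs searched on both strands: the Runx core, whose letters are TGTGGT, and the interferon response core, taken as AGTTTC, which opens the interferon-stimulated response element. Their reverse complements read ACCACA for the former and GAAACT for the latter.
Tnfsf10: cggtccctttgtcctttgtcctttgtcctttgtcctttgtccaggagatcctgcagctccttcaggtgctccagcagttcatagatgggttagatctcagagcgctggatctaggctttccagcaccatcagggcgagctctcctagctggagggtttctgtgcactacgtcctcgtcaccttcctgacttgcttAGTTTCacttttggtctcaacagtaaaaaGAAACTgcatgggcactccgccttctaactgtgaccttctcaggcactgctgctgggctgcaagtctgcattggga
Tnfrsf13c: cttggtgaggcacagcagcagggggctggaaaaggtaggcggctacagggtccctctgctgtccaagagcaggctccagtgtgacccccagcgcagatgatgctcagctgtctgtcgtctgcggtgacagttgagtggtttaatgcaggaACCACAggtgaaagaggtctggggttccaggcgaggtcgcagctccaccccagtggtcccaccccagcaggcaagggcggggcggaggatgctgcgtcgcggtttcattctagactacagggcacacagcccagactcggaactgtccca
Tnfrsf18: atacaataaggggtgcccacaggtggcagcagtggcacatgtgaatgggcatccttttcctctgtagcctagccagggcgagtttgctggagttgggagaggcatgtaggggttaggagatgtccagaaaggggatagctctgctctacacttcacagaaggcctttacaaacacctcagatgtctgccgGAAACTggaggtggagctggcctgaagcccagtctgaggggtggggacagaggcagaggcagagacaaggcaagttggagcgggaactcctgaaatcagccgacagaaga
Tnfrsf21: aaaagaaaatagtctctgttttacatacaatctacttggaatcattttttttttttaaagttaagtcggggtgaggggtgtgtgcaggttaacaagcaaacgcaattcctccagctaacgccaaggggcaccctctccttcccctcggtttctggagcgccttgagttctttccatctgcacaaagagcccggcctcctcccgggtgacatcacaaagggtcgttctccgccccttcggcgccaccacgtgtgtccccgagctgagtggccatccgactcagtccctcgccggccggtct
Cd27: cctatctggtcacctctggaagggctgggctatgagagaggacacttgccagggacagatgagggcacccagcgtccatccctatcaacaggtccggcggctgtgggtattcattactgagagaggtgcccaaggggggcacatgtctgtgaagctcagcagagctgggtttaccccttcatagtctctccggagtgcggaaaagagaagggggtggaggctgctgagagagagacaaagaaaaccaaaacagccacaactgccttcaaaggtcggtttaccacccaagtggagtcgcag

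The window of Tnfrsf13c held the Runx core, on the opposite strand, at positions -100 to -95 from the start. The window of Tnfsf10 held the interferon response core on both strands, at -55 to -50 and at -26 to -21, and that of Tnfrsf18 held it at -60 to -55 on the opposite strand. The windows of Tnfrsf21 and Cd27 held neither set of letters, and no matches overlapped. Windows were found for 28 of the 35 members, 32 windows in all. The Runx core occurred in 5 of the 32, 1 each for Tnfrsf13c, Tnfrsf17, Tnfrsf25, Tnfrsf9 and Tnfsf14. It occurred in 16.8% of the 32851 windows of this length in the whole table. The interferon response core occurred in 6 of the 32, 1 each for Fasl, Tnfrsf14, Tnfrsf18, Tnfrsf25, Tnfrsf4 and Tnfsf10. It occurred in 15.8% of all windows. Some members have more than 1 window. A match of letters is a description of the window and not a binding site.

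None of the 35 genes was 2-fold apart between the arrays in either direction. Such differences were rare among all genes too. Of the 10337 named genes past the brightness filter 0.793% were 2-fold or more higher without Runx2 and 1.17% were 2-fold or more lower. Over all named genes the shares were 0.436% and 0.647%. At these shares a set of 35 genes can hold none, so the count does not set the family apart. The median log2 difference, Runx2-deficient minus wild type, was 0.013 over members and -0.033 over all named genes. It was 0.012 over the 14 ligands and 0.029 over the 21 receptors. Of the 35 members 31 differed by less than 0.5 in log2 units, and 94.2% of all named genes did. The 19 members below the brightness filter were all among these 31; of the 16 past it 12 were, where 90.0% of named genes past it differed by less than 0.5. Members above 0 numbered 19, where 42.6% of all named genes were above 0. After median centring 22 members and 50% of genes were above 0, and after the intensity trend was removed 23 members and 50.1%.

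At a 1.5-fold threshold 2 of the 35 members were higher, Tnfsf10 and Tnfrsf13c, and 0 were lower. Among genes past the filter 3.02% reached this threshold upwards and 3.86% downwards, and among all named genes 1.73% and 2.22%. These counts were the same after median centring, after removal of the intensity trend and with 50 intensity units added to both arrays.

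**Figure D1:**
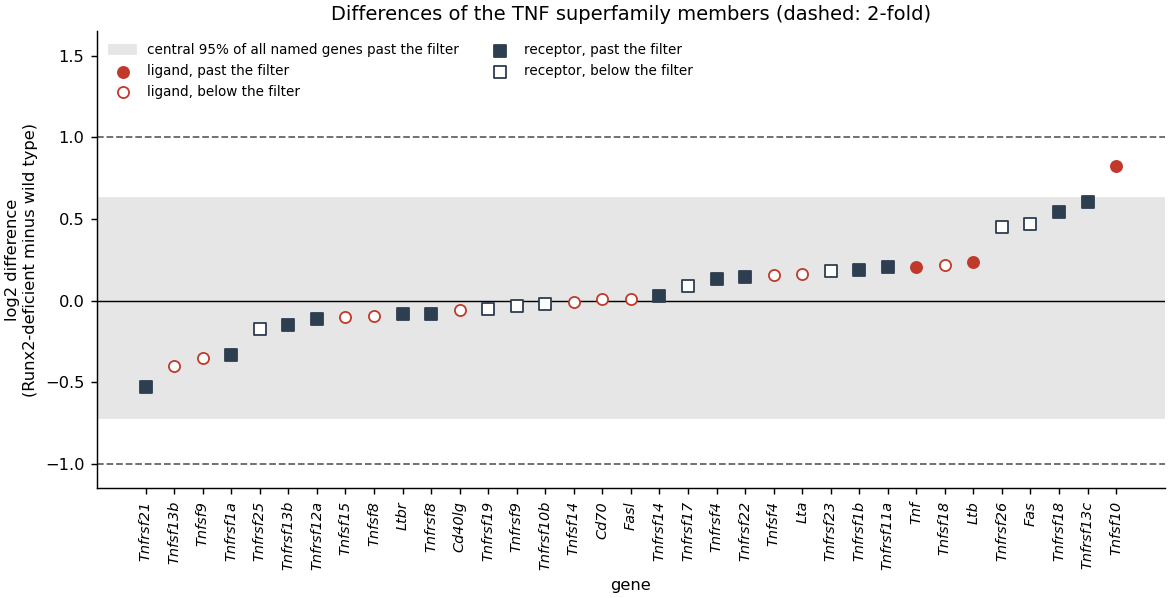
Log2 difference between the Runx2-deficient and the wild-type array for each of the 35 members, ordered by size; circles are ligands, squares are receptors, and open symbols are genes below the brightness filter on both arrays. The grey band holds the central 95% of named genes past the filter, from -0.72 to 0.63; Tnfsf10, at 0.82, is the 1 member outside it, and no member reaches the dashed 2-fold lines.

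Few ligand transcripts reached the brightness filter. Of the 14 ligands 3 passed it (Tnf, Ltb and Tnfsf10), and of the 21 receptors 13 did, where 51.8% of all named genes passed. Ltb passed on the Runx2-deficient array only. Just below the filter on both arrays were Tnfrsf17, at 7.44 on the wild-type array against 7.52 on the Runx2-deficient one in log2 units, and Tnfrsf9, at 7.52 and 7.49. The filter sets each gene against the median of all named genes. Because probes of different genes bind with different strength, passing it does not rank the expression of one gene above that of another. Apart from the filter, levels of members are compared only within a gene, between the arrays.

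**Figure D2:**
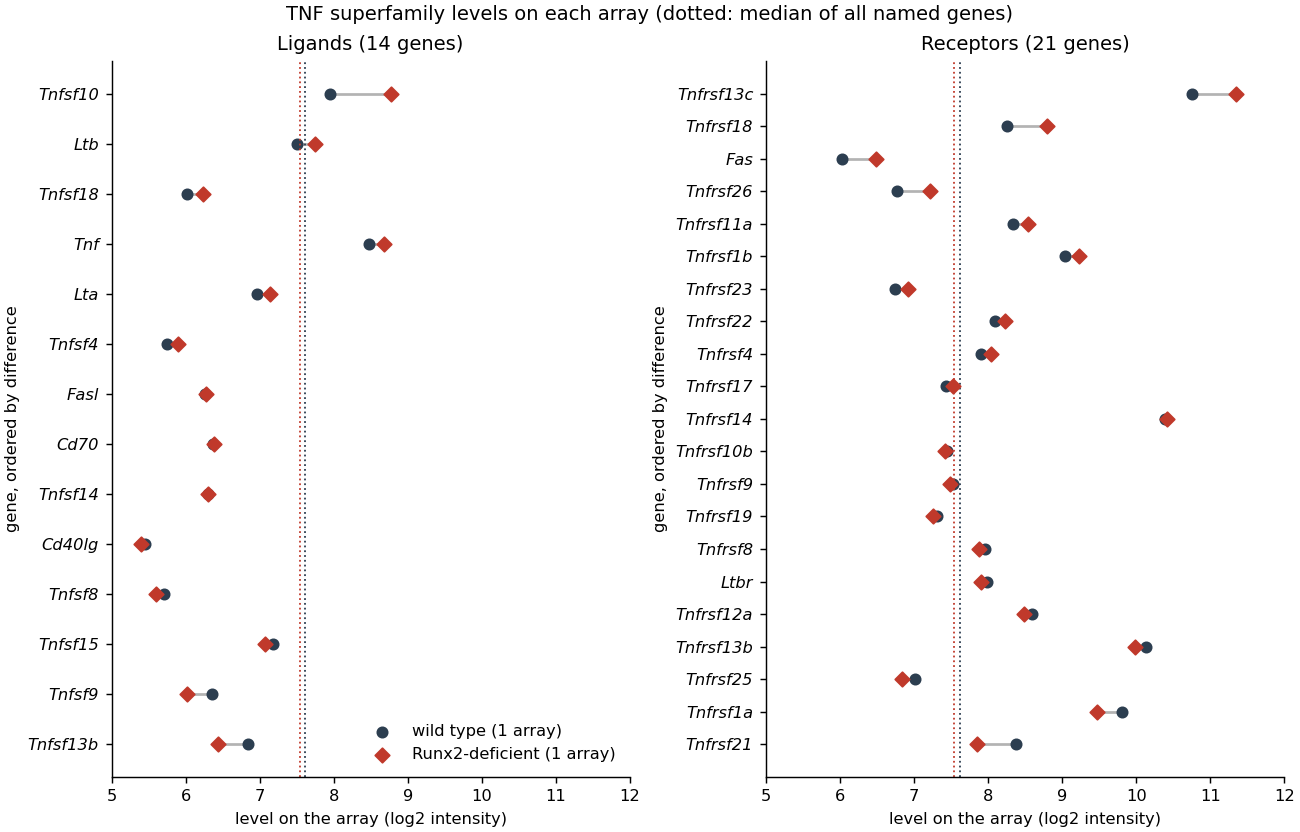
Level of each member on the wild-type array (dark circles) and the Runx2-deficient array (red diamonds), in log2 intensity, with ligands on the left and receptors on the right, each ordered by the difference. The dotted lines are the median of all named genes on each array, 7.61 and 7.54; 11 of the 14 ligands lie below them on both arrays, and the gaps between the arrays are widest for Tnfsf10 and Tnfrsf13c.

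The samples' labels were checked against marker genes. Of 14 pDC genes 13 were measured and all of these passed the filter, with a median difference of -0.044 and 4 above 0. Siglech, Tcf4 and Irf8 were at 13.48, 13.16 and 13.40 in log2 units for wild type, and at 13.55, 13.11 and 13.43 for the Runx2-deficient sample. The lowest log2 differences of the 13 were those of Spib (-0.69), Pacsin1 (-0.56), Ly6d (-0.46), Tlr9 (-0.32) and Bst2 (-0.31). Genes listed as markers of some other cell types were not equal on the arrays. Of 13 granulocyte genes 12 were 2-fold or more lower without Runx2, with a summed intensity of 18610 on the wild-type array against 2597 on the Runx2-deficient one. Of 11 erythroid genes 7 were measured and 4 of these were at least 2-fold lower (sums of 2468 and 884), and of 10 platelet genes 7 were measured and 3 were lower (7059 and 1453). Of 10 monocyte and macrophage genes 8 were measured and went both ways, with 4 above 0 and a median of -0.078. Lyz2 and Ccr2 were at least 2-fold lower and Fn1 was 1.84-fold lower, while C1qb and Csf1r were 1.85-fold and 1.56-fold higher. Csf1r passed the filter only on the array where it is higher. The sums were 3859 and 1957. All 10 conventional dendritic cell genes were measured, with 6 above 0, a median of 0.031 and sums of 21170 and 20370. Itgax alone among them was 2-fold apart, at 2047 units on the wild-type array against 379 on the Runx2-deficient one, 5.39-fold lower. Zbtb46, Xcr1 and Clec4a4 of this list were below the filter on both arrays. Which cells, pDCs among them, gave the Itgax signal was not tested. The part of these cell types in the values below was not tested. In sorted bulk RNA fewer cells of a type and less RNA per cell cannot be told apart. The genotype was not checked on Runx2 itself, for which no probe set is named in the annotation.

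The ligand Tnfsf10 had the widest difference of all members. It encodes TRAIL, a death ligand that is induced by interferons in many cell types. It measured 247 intensity units on the wild-type array and 437 on the Runx2-deficient array, a 1.77-fold higher level. The log2 difference of 0.82 (0.71 with 50 intensity units added to both arrays) exceeded that of 98.7% of named genes past the filter. The receptors of TRAIL showed smaller differences. Tnfrsf10b, the mouse death receptor for TRAIL, was below the filter and nearly equal, at 174 units on the wild-type array against 172 on the Runx2-deficient one. Tnfrsf22, a decoy receptor that binds TRAIL without a death domain, measured 272 and 301 units, a log2 difference of 0.14. The related decoy receptor gene Tnfrsf23 was dim on both arrays, at 107 and 121 units. Tnfrsf26, their neighbour in the gene cluster, measured 109 and 148 units, 1.37-fold higher and also below the filter. Tnfrsf22, Tnfrsf23 and Tnfrsf26 arose by gene duplication, so probes of one may also bind transcripts of another, and their separate values are uncertain.

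The receptors for the B cell survival factor BAFF went in different directions. Tnfrsf13c, the BAFF receptor, which keeps mature B cells alive through non-canonical NF-kappaB signalling, was the receptor with the widest difference among the members. It measured 1723 intensity units on the wild-type array against 2617 on the Runx2-deficient one, 1.52-fold higher, with a log2 difference of 0.60. Tnfrsf13b (TACI), a receptor for both BAFF and APRIL that restrains B cell responses, measured 1121 and 1012 units, a log2 difference of -0.15. Tnfrsf17 (BCMA), which sustains plasma cells, was just below the filter at 173 and 184 units. The ligand Tnfsf13b, which encodes BAFF, was dim on both arrays, at 115 units on the wild-type array against 86.8 on the Runx2-deficient one, a log2 difference of -0.40 that moved to -0.27 with 50 units added. BAFF and its own receptor thus differed in opposite directions, with the ligand below the filter. APRIL (Tnfsf13) and TWEAK (Tnfsf12) share 1 probe set with a fusion transcript and were not members. That probe set measured 181 and 150 units.

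Genes listed as B cell markers were themselves unequal, in both directions. Of 12 such genes 11 were measured, and 2 were at least 2-fold higher (Bank1 and Cd22) and 1 at least 2-fold lower (Blk). Bank1 passed the brightness filter only on the array where it is higher. The summed intensities were 7177 on the wild-type array against 10526 on the Runx2-deficient one. The B cell factors Pax5 and Ebf1, the pre-B cell gene Vpreb1 and Ms4a1, which encodes CD20, were below the filter on both arrays. Cd79a, a chain of the B cell receptor, measured 398 units on the wild-type array against 267 on the Runx2-deficient one. Cd79b, which encodes its partner chain, went the other way, at 2000 and 2397 units, and so did Fcrla, at 3014 and 5412.5. Of the 11 genes 5 were above 0 and 6 below, with a median log2 difference of -0.18. The part of B lineage cells in the Tnfrsf13c value was not tested.

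Among the members that act as costimulatory receptors of lymphocytes, Tnfrsf18 differed most. It encodes GITR, known from regulatory and activated T cells, and measured 305 intensity units on the wild-type array against 445 on the Runx2-deficient one, 1.46-fold higher. Its chromosomal neighbour Tnfrsf4, which encodes OX40, measured 240 and 264 units, a log2 difference of 0.13. Their ligands Tnfsf18 and Tnfsf4, which are neighbours of each other too, were below the filter, with log2 differences of 0.22 and 0.15. All 4 genes of these 2 pairs were thus higher in the Runx2-deficient sample, by different amounts and with both ligands dim. Tnfrsf9 (the receptor 4-1BB) was level at 184 and 180 units, and its ligand Tnfsf9 was dim, at 82.3 and 64.7. Tnfrsf8, which encodes CD30, measured 249 and 236 units, and its ligand Tnfsf8 was at 52.1 and 48.7. Tnfrsf14 (HVEM), which binds LIGHT and the inhibitory receptor BTLA, was well past the filter and almost equal, at 1346 and 1373 units. Its ligand Tnfsf14 (LIGHT) was dim and also equal, at 79.3 and 78.9 units. The CD3 chain genes of T cells (Cd3d, Cd3e, Cd3g) did not pass the filter on either array. Of 10 listed T cell genes 9 were measured, with 4 above 0, 5 below 0 and a median log2 difference of -0.028. Their summed intensities were 1680 for wild type and 2073 for the Runx2-deficient sample. Among these the signalling adaptor gene Lat, past the filter, measured 312 and 615 units, 1.97-fold higher and past 2-fold after median centring. Cd6 was 1.39-fold higher, and Cd3e was lowest, with a log2 difference of -0.34. The part of T cells in the Tnfrsf18 value was not tested.

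Outside the member rule, Cd27 showed the widest difference of the superfamily. CD27 is a costimulatory receptor of T, B and NK cells and progenitors, and its ligand is CD70. Cd27 measured 444 intensity units on the wild-type array against 1411 on the Runx2-deficient one, a 3.18-fold higher level and a log2 difference of 1.67 (1.56 with 50 units added). Its ligand gene Cd70, a member, was dim and equal, at 82.6 and 83.3 units. Cd40, which licenses dendritic cells on contact with T cells, measured 205 units on the wild-type array against 289 on the Runx2-deficient one, 1.41-fold higher. Cd40lg, which encodes its ligand and is a product of activated T cells, was dim, at 43.7 and 42.0 units. In both pairs the receptor was higher and past the filter on each array, while the ligand was below it. Of 8 NK cell genes 0 were 2-fold apart (sums of 2602 and 2601). Most of these sums came from Klrd1, at 1748 and 1796 units, and 6 of the 8 genes were below the filter. Of 8 plasma cell genes 1, Slamf7, was at least 2-fold higher (sums of 12301 and 14364), with the sums for B and T cell genes given above. The part of these cells in the Cd27 and Cd40 values was not tested. The other superfamily genes outside the rule were Relt, at 291 and 234 units, and Ngfr, Eda, Edar and Eda2r, all below the filter with log2 differences from -0.11 to 0.12.

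The receptors for TNF itself differed in opposite directions. Tnf, the inflammatory cytokine that gives the family its name, measured 355 intensity units on the wild-type array against 409 on the Runx2-deficient one, a log2 difference of 0.21. Tnfrsf1a, the broadly expressed TNF receptor with a death domain, measured 894 and 711 units, 1.26-fold lower in the Runx2-deficient sample. Tnfrsf1b, the TNF receptor without a death domain, measured 525 and 599 units, 1.14-fold higher. Lymphotoxin-alpha (Lta), which uses the same receptors as a soluble trimer, was dim, at 125 and 141 units. Ltb, whose product anchors lymphotoxin at the cell surface, measured 182 and 214 units. Ltbr, its receptor, which organises lymphoid tissue, was nearly equal at 254 and 239 units. The ligand genes Tnf, Lta and Ltb lie side by side on chromosome 17, and all 3 were slightly higher in the Runx2-deficient sample, by 0.16 to 0.24 on the log2 scale.

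Receptors with a death domain differed in both directions. Tnfrsf21 (death receptor 6) had the lowest difference of all members. It measured 334 intensity units on the wild-type array against 232 on the Runx2-deficient one, 1.44-fold lower, and its log2 difference of -0.53 was undercut by 5.14% of named genes past the filter. Tnfrsf1a, described above, was next among the receptors, with a difference of -0.33. Tnfrsf25 (death receptor 3) was below the filter at 129 and 114 units, and its ligand Tnfsf15, which encodes TL1A, was at 145 and 135. Fas, the classical death receptor, was dim on both arrays but higher in the Runx2-deficient sample, at 65.1 and 90.0 units; the log2 difference of 0.47 moved to 0.28 with 50 units added. Its ligand gene Fasl, a product of cytotoxic lymphocytes, was dim and equal, at 76.55 and 77.2 units. Granulocyte genes were lower on the same array as Tnfrsf21 and Tnfrsf1a, by the sums given above, while the listed monocyte genes went both ways. The part of these cells in the differences was not tested.

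The remaining receptors differed by 0.20 or less on the log2 scale. Tnfrsf11a (RANK), the receptor that drives osteoclast formation, measured 324 units on the wild-type array against 373 on the Runx2-deficient one. Tnfrsf12a, the receptor for TWEAK, measured 387 and 357 units. Tnfrsf19 (TROY), known from skin and the nervous system, was below the filter at 159 and 153 units. Over the 8 receptors below the filter on both arrays the log2 differences ran from -0.17 to 0.47, and over the 11 such ligands from -0.40 to 0.22.

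Of 26 textbook ligand and receptor pairs, 23 could be formed from genes with their own probe sets, and the other 3 involve TWEAK or APRIL. Both genes passed the filter in 4 pairs: Tnf with each of its receptors, Ltb with Ltbr, and Tnfsf10 with the decoy gene Tnfrsf22. In 11 pairs the receptor passed and the ligand did not. In 2 pairs the ligand passed and the receptor did not, both of them Tnfsf10 with another of its receptors. Neither gene passed in 6 pairs. Ligand and receptor were both higher in 9 pairs, both lower in 5 and opposite in 9, and pairs that share a gene are not independent. Several of these signs rest on values near 0: after median centring, and likewise after removal of the intensity trend, 11 pairs were both higher and 3 both lower.

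**Figure D3:**
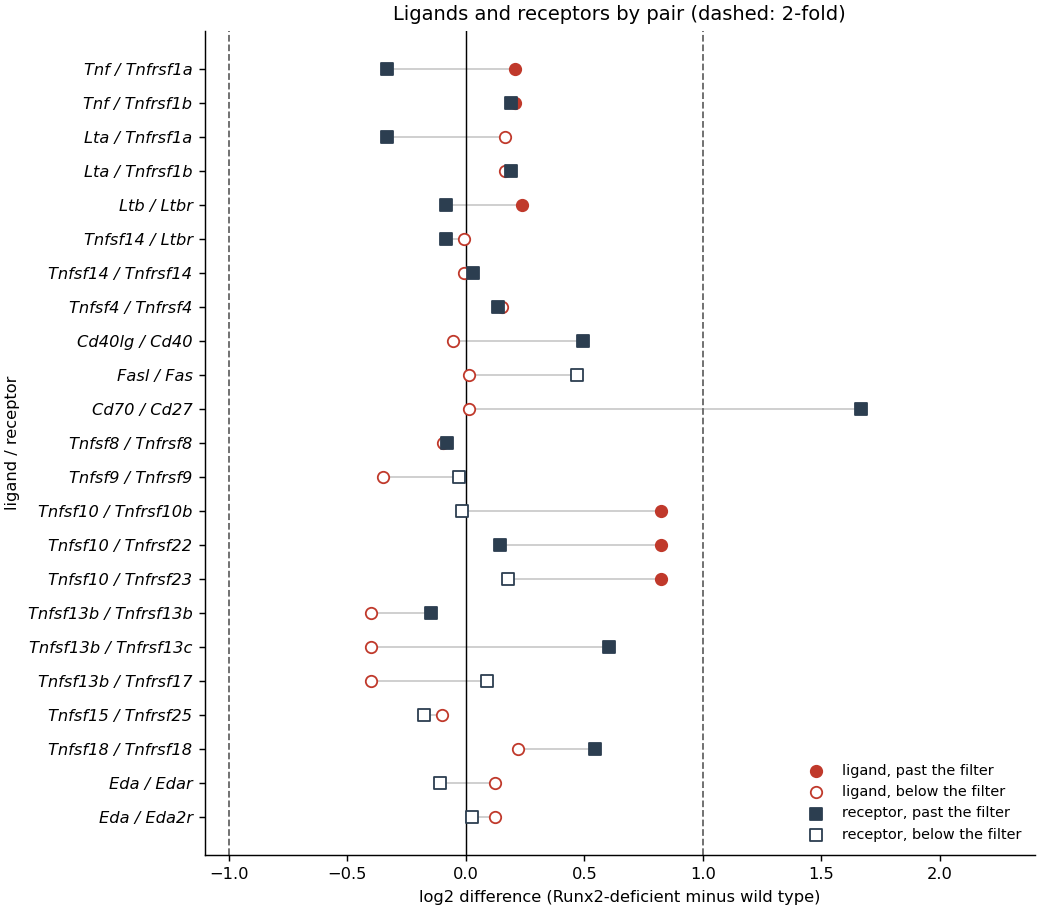
Log2 difference between the Runx2-deficient and the wild-type array for the ligand (circle) and the receptor (square) of each of the 23 pairs, joined by a line; open symbols are genes below the brightness filter on both arrays, and dashed lines mark 2-fold. Cd27, outside the member rule, is the 1 gene past 2-fold, at 1.67, while its ligand Cd70 sits at 0.012; Tnfsf13b and Tnfrsf13c lie on opposite sides of 0.

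Members that lie next to each other on a chromosome, within 5 protein-coding genes in the GRCm38.p6 gene table, formed 8 groups holding 20 members. The groups on one side of 0 throughout were Tnfsf4, Tnfsf18 and Fasl on chromosome 1, Ltb, Tnf and Lta on chromosome 17, Tnfrsf4 and Tnfrsf18 on chromosome 4, and Tnfrsf26, Tnfrsf22 and Tnfrsf23 on chromosome 7, all higher. Tnfsf15 and Tnfsf8 on chromosome 4 and Ltbr and Tnfrsf1a on chromosome 6 were lower. Signs differed within the group of Tnfrsf1b (0.19) and Tnfrsf8 (-0.079) on chromosome 4. They also differed within the group of Tnfsf9 (-0.35), Cd70 (0.012) and Tnfsf14 (-0.0068) on chromosome 17. Fasl was at 0.013, and every gene in the groups of Tnfsf4 and of Tnfsf15 was below the brightness filter on both arrays. Groups this small can share a sign without any link between their genes. How often other neighbouring genes do so was not counted here, and shared regulation was not tested.

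The signalling genes behind the receptors lay on both sides of 0. Of 30 listed adaptor and ubiquitin genes 27 were measured, all past the filter, with 0 at least 2-fold apart, 14 above 0 and a median log2 difference of 0.027. Birc2, which encodes the ubiquitin ligase cIAP1 that sits on TRAF2, was highest at 0.57, followed by the stress kinase gene Map3k5 (0.43), the deubiquitinase gene Cyld (0.37) and Traf1 (0.33). The genes lowest in the Runx2-deficient sample were Tradd, the adaptor of TNF receptor death domains (-0.45), Tab1 (-0.37), the linear ubiquitin gene Rbck1 (-0.34) and Sqstm1 (-0.32). Map3k14, the kinase of the non-canonical pathway below the BAFF receptor and CD40, differed by -0.14. For comparison, 47.8% of named genes past the filter were above 0, with a median of -0.014. Over all named genes these values were 42.6% and -0.033. Lists as short as this one and those that follow can hold 0 genes 2-fold apart at the background shares given earlier. Such counts therefore do not set the lists apart from other genes.

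Effectors of death receptors and NF-kappaB genes had no member 2-fold apart. Of 16 listed death effectors 14 were measured, with 7 above 0 and a median of 0.0055. Casp8, the initiator caspase of death receptors, measured 4955 intensity units on the wild-type array against 4688 on the Runx2-deficient one. Fadd, which recruits it, measured 216 and 228 units, and Cflar, which blocks it, differed by 0.24. Of 10 listed NF-kappaB subunits and inhibitors 9 were measured, with 3 above 0 and a median of -0.17. Nfkbib (-0.54), Rela (-0.50) and Nfkbie (-0.34) were lowest, and Nfkbia (0.32), Nfkb2 (0.31) and Nfkbiz (0.30) highest.

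Enzymes that process the ligands also differed by less than 2-fold. Of 12 measured genes 5 were above 0, with a median of -0.066. Adam17, the sheddase that releases TNF, measured 1354 units on the wild-type array against 1760 on the Runx2-deficient one, a log2 difference of 0.38. Timp3, an inhibitor of that sheddase, was lower, at 198 and 127 units, a log2 difference of -0.64 that rests on a level below the filter in the Runx2-deficient sample. Furin, the protease that cleaves BAFF and APRIL precursors, measured 583 and 455 units, a log2 difference of -0.36.

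**Figure D4:**
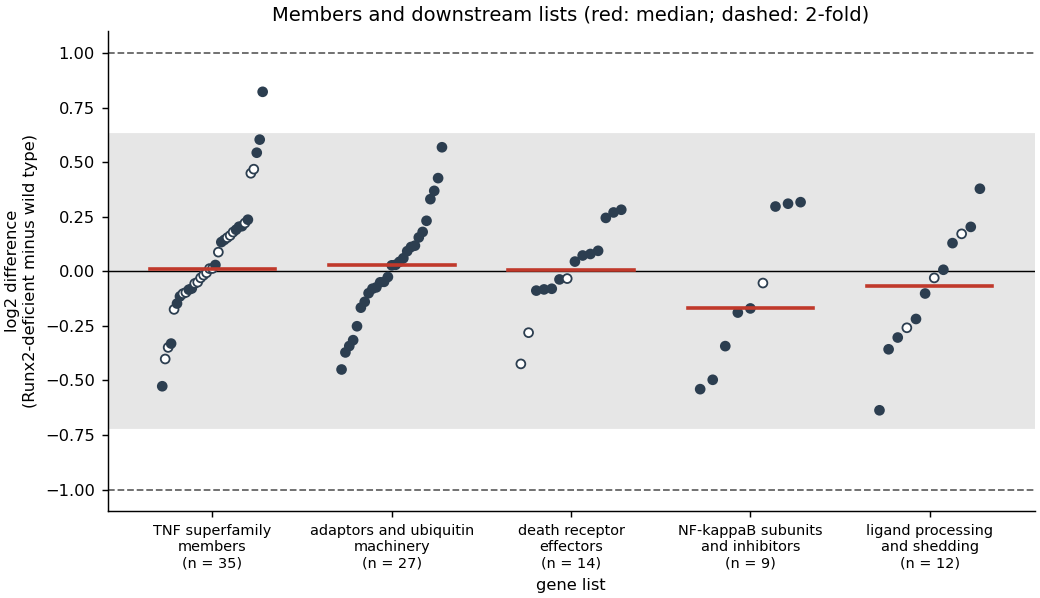
Log2 difference of each gene in the member set and in 4 lists of the signalling and ligand processing machinery; open points are below the brightness filter on both arrays, red bars are medians and the grey band is the central 95% of named genes past the filter. The medians lie between -0.17 for NF-kappaB genes and 0.027 for adaptor genes, and no gene reaches 2-fold.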

How the data were processed

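The deposited values are linear intensities, 1 per probe set and array, made by the authors with RMA (robust multi-array average) per the submitters' processing notes. The program behind them, with its version and the set of arrays normalised jointly, was not given in the sources used here. The total table holds 35556 probe sets, with medians of 182.9 (wild type) and 181.7 (Runx2-deficient) and a range of 15.3 to 20364. RMA shrinks differences between dim signals, and detection calls were not used here. The number of arrays limits the precision.

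Differences are log2 of the Runx2-deficient value minus log2 of the wild-type value. Of the probe sets, 21789 have 1 symbol, 1621 several and 12146 none in the platform annotation, which can be old. The brightest probe set stood for a gene. All 35 members matched the RefSeq table by gene identifier, with 0 symbols changed. The brightness filter kept genes that reached, on either array, that array's median over named genes. Folds of 2 and 1.5 were used as thresholds, without a test.

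Every member could be named; members past the filter and at least 1.5-fold apart were to be described first, others below the filter with a value as partners, and up to 4 genes of each list in each direction. Members, lists, pairs and rules were chosen with earlier results of these data known. The motifs and the rule for printing promoters were chosen after values and windows had been seen. The calculation was tested on simulated data. Tools were pandas 2.3.3 and numpy 2.4.6 under Python 3.11.15, statsmodels 0.14.6 for loess, and matplotlib 3.10.9.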

Additional observations from a re-analysis of the deposited data

How the results depend on the processing

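Median centring (a shift of 0.033), removal of the intensity trend by loess (span 0.3), averaging over probe sets and an offset of 50 intensity units were each tried. None of the 35 members became 2-fold apart under any of them, with no brightness filter, or with a filter at the 75th percentile. The widest difference among members was 0.82 in log2 units. The shift, the averaging, the offset and the filter changes therefore could not have made a member 2-fold apart. A 1.5-fold threshold gave 2 higher members in place of 0. Over members past the filter alone the median difference was 0.14 in place of 0.013, and over the 3 ligands past it 0.24 in place of 0.012; that last value is Ltb's own, and Ltb passed only on the array where it is higher, so neither median supports a shift. The sign changed for 3 members under centring and 4 under loess, all below the filter and within 0.1 of 0. With the offset, 5 members moved by 0.1 or more, all towards 0, namely Fas, Tnfrsf26, Tnfsf10, Tnfsf13b and Tnfsf9. Every member has 1 probe set, so averaging probe sets left members as they were. No paired analysis was possible because each genotype has 1 array. Depth is not defined for arrays; dim probe sets, 19 of the 35 members, limit what differences can be seen.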

Other observations

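Of 20 listed genes known to be induced by TNF and NF-kappaB, 19 were measured, 12 of them past the filter. Of the 19 genes 13 were above 0, against 42.6% of all named genes and 47.8% of those past the filter. None was 2-fold apart, where 0.436% of all named genes were higher and 0.647% lower. The median log2 difference was 0.18, against -0.033 over all named genes and -0.014 over those past the filter. Cxcl10, a chemokine also induced by interferons, measured 187 intensity units on the wild-type array against 330 on the Runx2-deficient one. It passed the brightness filter only on the array where it is higher. Vcam1, an adhesion molecule, measured 320 and 450 units, and the survival gene Tnfaip8 measured 1336 and 1722. The 7 genes below the brightness filter on both arrays went both ways. Cd83 and Cxcl2 were higher, by 0.65 and 0.22. Tnfaip2, Ier3, Cxcl1, Relb and Ccl2 were lower, by -0.43, -0.39, -0.18, -0.054 and -0.050. Of the 19 genes 6 are also in the signalling lists described above, and the other 13 had a median of 0.11 with 8 above 0. With 1 array per genotype these values have no replicate check.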
